A study of Mus musculus with 9 samples.

Results

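The laminin chains and nidogens of the basement membrane were followed in muscle cells that had been transplanted and recovered. Members were taken by name from the annotation of the arrays, with Lamb1 also accepted under its older array name Lamb1-1. The rule found 9 genes (Lama1, Lama2, Lama4, Lama5, Lamb1, Lamb2, Lamc1, Nid1 and Nid2) of 27597 named genes, read by 15 of 41174 probes. Of these, 12 probes and 7 genes were bright enough to test; the probes of Lama1 and Lama5 were not.

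RNA came from cells of the tibialis anterior, a muscle of the lower leg, of mice aged 3 months, and was measured on 9 single-colour arrays, 3 per group. The iPax3 and iPax7 groups were mononucleated cells recovered after injection of myogenic progenitors made from pluripotent stem cells, and the hosts were of the strain NSG/NSGmdx4cv, where NSG denotes immunodeficient mice and mdx4cv a dystrophin mutation. The labels do not say which of these hosts gave which array, nor by which surface markers the cells were recovered. The comparison group was adult satellite cells, muscle's own stem cells, from Pax7-ZsGreen mice, whose Pax7-expressing cells carry a green fluorescent protein. Per the labels, 1500 cells from 3 mice per line were sorted in 3 independent experiments and their RNA was amplified before labelling. All p-values rest on the spread among these arrays, which may be partly technical. The re-isolated arrays lay on 2 slides scanned on the same day. Each satellite array lay on a slide of its own, and none was scanned on that day. Satellite replicate 1 was scanned on a day of its own and replicates 2 and 3 together on another. The strains differed as well, so that slide, scan day, strain and cell source cannot be told apart in any comparison with satellite cells.

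Laminins are secreted as trimers of an α, a β and a γ chain, which join along a coiled coil and then assemble into sheets at the cell surface. Nidogens bind the γ1 chain and link the laminin sheet to collagen IV and perlecan. In skeletal muscle the trimer around the fibre is built on the α2 chain, the product of Lama2, whose loss causes a congenital muscular dystrophy. Satellite cells lie between the fibre membrane and this sheet. The α4 chain is a main laminin chain of vessel walls and of peripheral nerve, and lacks the large amino-terminal part through which other α chains assemble.

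The results turn on what a few probes of 60 bases read, so their sequences are given first, as the scanner tables hold them, with coordinates on mouse build mm8. The Lama4 probes A_51_P212420 and A_52_P7554 share 29 bases, shown in capitals, and are therefore not independent readings of the transcript. A_51_P212427 shares no run of 20 or more bases with another Lama4 probe, and all 3 were designed on the RefSeq transcript. The first pair lies on the plus strand at chr10:38795404-38795463 and at chr10:38794642-38795432. The second of these spans 791 bases of genome, more than its own length.
Lama4 A_51_P212420: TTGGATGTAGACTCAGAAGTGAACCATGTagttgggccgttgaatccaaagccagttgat
Lama4 A_52_P7554: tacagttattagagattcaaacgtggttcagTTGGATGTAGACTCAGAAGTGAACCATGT
The probes that represent Lama2 and the paired chains Lamb1 and Lamb2 are shown for the comparison of chains. A_52_P652859 of Lama2 lies on the minus strand of chr10:26680324-26682334 and A_51_P191865 at chr10:26673839-26673898. The Lamb1 probe lies on the plus strand of chr12:31913875-31915221 and the Lamb2 probe on the plus strand of chr9:108347961-108348020.
Lama2 A_52_P652859: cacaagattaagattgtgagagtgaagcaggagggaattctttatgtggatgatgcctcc
Lama2 A_51_P191865: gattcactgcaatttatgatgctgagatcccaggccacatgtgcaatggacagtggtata
Lamb1 A_51_P244287: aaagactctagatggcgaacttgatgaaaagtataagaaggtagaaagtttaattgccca
Lamb2 A_51_P248044: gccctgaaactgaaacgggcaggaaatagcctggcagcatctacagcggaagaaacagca

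Compared with satellite cells, Lama4 rose strongly in both lines, and Lamb1 and Nid1 rose when both lines were tested together. Levels are log2 intensities after subtraction of each array's own 75th percentile, and they serve to compare arrays for the same probe, not genes with each other. A gene counted as called at a Benjamini-Hochberg adjusted p under 0.05 in limma, over all 22694 genes tested. In iPax3 against satellite cells 1 of the 7 tested members was called, where 0.432% of all genes were. In iPax7 against satellite cells it was also 1 of 7, where 0.533% of genes were called. With both lines combined 3 of 7 were called, all higher, where 1.04% of genes were called in either direction. All 7 were higher than in satellite cells in either line, where 45.3% of genes were higher in iPax3 and 45.9% in iPax7. The median combined difference of the 7 members was 4.32 log2 units, against -0.16 over all genes. The 3 iPax3 arrays all lay above the 3 satellite arrays for 4 members (Lama4, Lamb1, Lamc1 and Nid1), as they did for 8.5% of genes with values on every array. The iPax7 arrays did so for these 4 and Nid2, against 7.54% of genes, and all 6 re-isolated arrays for the 4, against 4.06%. Passing the filter could depend on the re-isolated arrays alone, so these counts describe the 7 that passed and not the 9 genes.

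**Figure D1:**
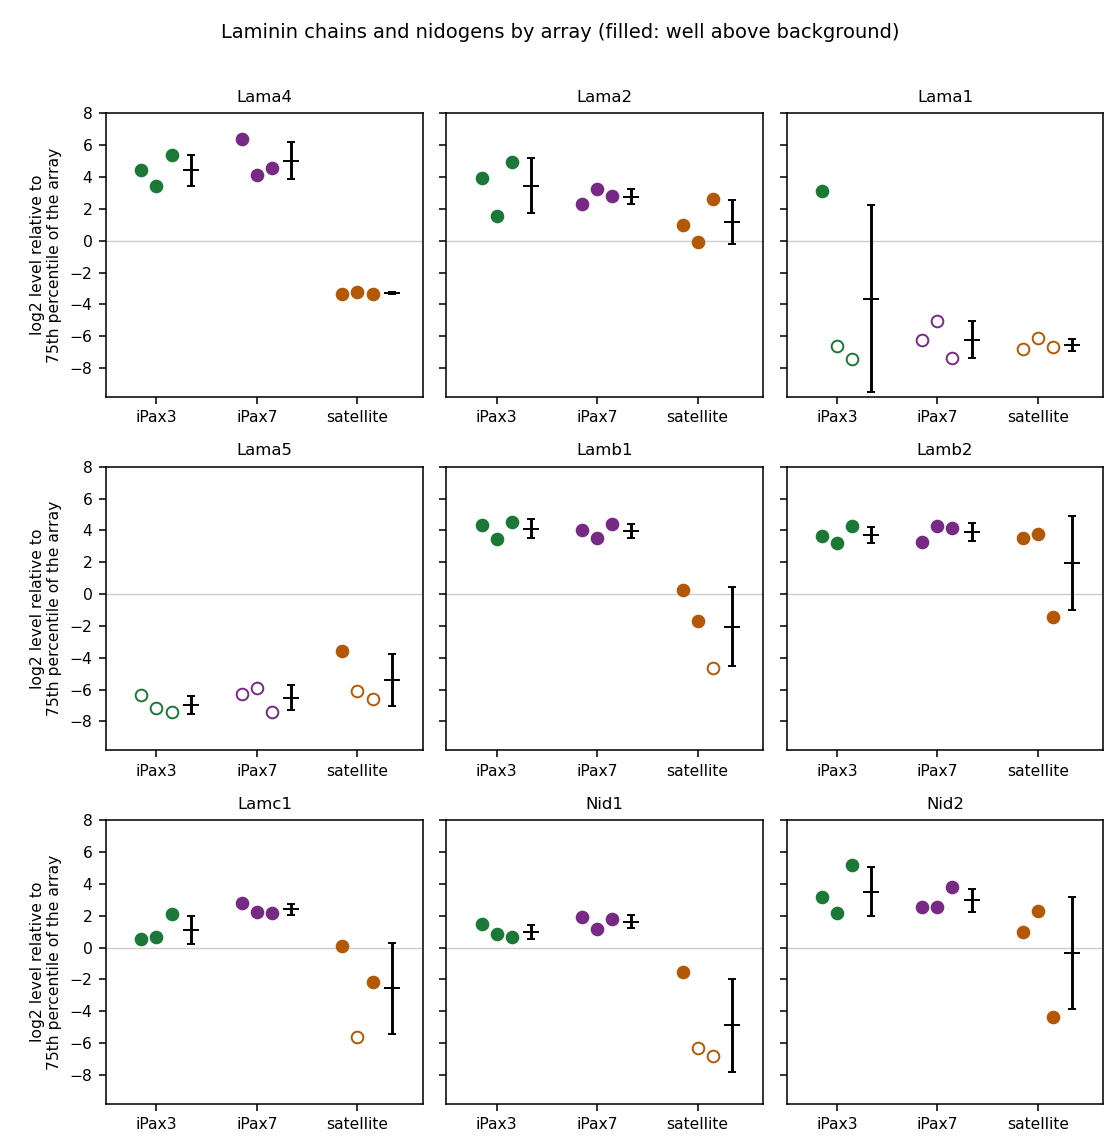
Log2 level above or below each array's 75th percentile (vertical axis) for the probe that represents each of the 9 genes, by group (horizontal axis). Filled points are arrays on which the probe was well above background and open points arrays on which it was not, and the bars show the mean and SD of 3 arrays. The 6 re-isolated arrays of Lama4 lie between 3.44 and 6.37, the 3 satellite arrays between -3.35 and -3.21.

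Among the α chains, Lama4 differed most. In iPax3 replicates 1 to 3 its level was 4.44, 3.44 and 5.35. In iPax7 it was 6.37, 4.15 and 4.58. In satellite replicates 1 to 3 it was -3.34, -3.21 and -3.35. The satellite arrays were nearly equal to each other and the lowest re-isolated array lay 6.65 log2 units above the highest of them. The probe was well above background on all 9 arrays. The difference was 7.71 ± 0.82 log2 units (SE, n = 3 against 3) in iPax3, with a limma adjusted p of 0.0063, which is a 209.9-fold higher intensity. In iPax7 it was 8.33 ± 0.82 (limma adjusted p = 0.0042), and over both lines 8.02 ± 0.71 (limma adjusted p = 0.0015). The call held when any 1 array was left out, in either line and in both together, with adjusted p-values of at most 0.045. With slide as a random block, the iPax3 difference of 7.21 was no longer called, at a limma adjusted p of 0.064.

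The other probes of Lama4 gave the same direction. A_52_P7554 read 3.09, 2.03 and 3.98 in iPax3, 4.98, 2.67 and 3.31 in iPax7, and -4.63, -6.08 and -5.38 in satellite cells, where it was well above background on replicate 1 alone. A_51_P212427 read 2.93, 1.75 and 3.34 in iPax3 and 2.71, 2.47 and 2.64 in iPax7. It was not well above background on any satellite array, so its level there is only a bound. Against that bound Lama4 was at least 231-fold higher in iPax3 and at least 220.5-fold higher in iPax7 by this probe. These bounded folds were not tested. With each probe as a feature of its own, the log2 differences were 9.88 in iPax3 and 9.81 in iPax7. Their limma adjusted p-values were 0.0045 and 0.0036, and they rest on the satellite readings at background. The bound divides the line's mean by a satellite mean taken, on each array, from the higher of the probe's own signal and the lowest signal well above background there.

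The fourth Lama4 probe, A_52_P78714, was designed on a cDNA clone and not on the RefSeq transcript. It was well above background on 4 arrays, iPax3 replicates 1 and 2 at -3.0 and -1.92 and iPax7 replicates 2 and 3 at -1.09 and -0.51. The remaining re-isolated arrays read -7.32 and -6.17 and were not well above background, nor were the satellite arrays at -8.62, -6.20 and -6.65, and the groups overlapped by this probe. The clone's combined difference of 3.82 ± 1.56 was not called (limma adjusted p = 0.32). The ratio of the line's mean to the satellite bound was 2.15 in iPax3 and 6.02 in iPax7. Each of these means includes an array that was not well above background, so neither ratio is a minimum.

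Lama2, the chain of the fibre basement membrane, did not pass the test in any comparison. The probe A_52_P652859 read 3.92, 1.54 and 4.92 in iPax3, 2.29, 3.21 and 2.80 in iPax7, and 0.99, -0.08 and 2.63 in satellite cells. The groups overlapped, since satellite replicate 3 lay above iPax3 replicate 2 and iPax7 replicate 1. The combined difference was 1.93 ± 0.90 log2 units with a 95% confidence interval from -0.09 to 3.95 (limma adjusted p = 0.34). A_51_P191865, printed on 10 spots, was designed on a sequence other than the RefSeq transcript and gave a similar 2.04 ± 0.83 (limma adjusted p = 0.32). The SD over its 10 spots was between 0.03 and 0.07 on each array, far below the spread between arrays. The remaining probe, A_52_P459341, was also not designed on the RefSeq transcript and lies at chr10:27164783-27164842, far upstream of the other 2 in the gene. It read between -1.05 and 0.24 in the re-isolated cells and -1.16, -0.69 and 0.88 in satellite cells. Its combined difference of -0.23 ± 0.71 had the opposite sign and was not called (limma adjusted p = 0.91).

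**Figure D2:**
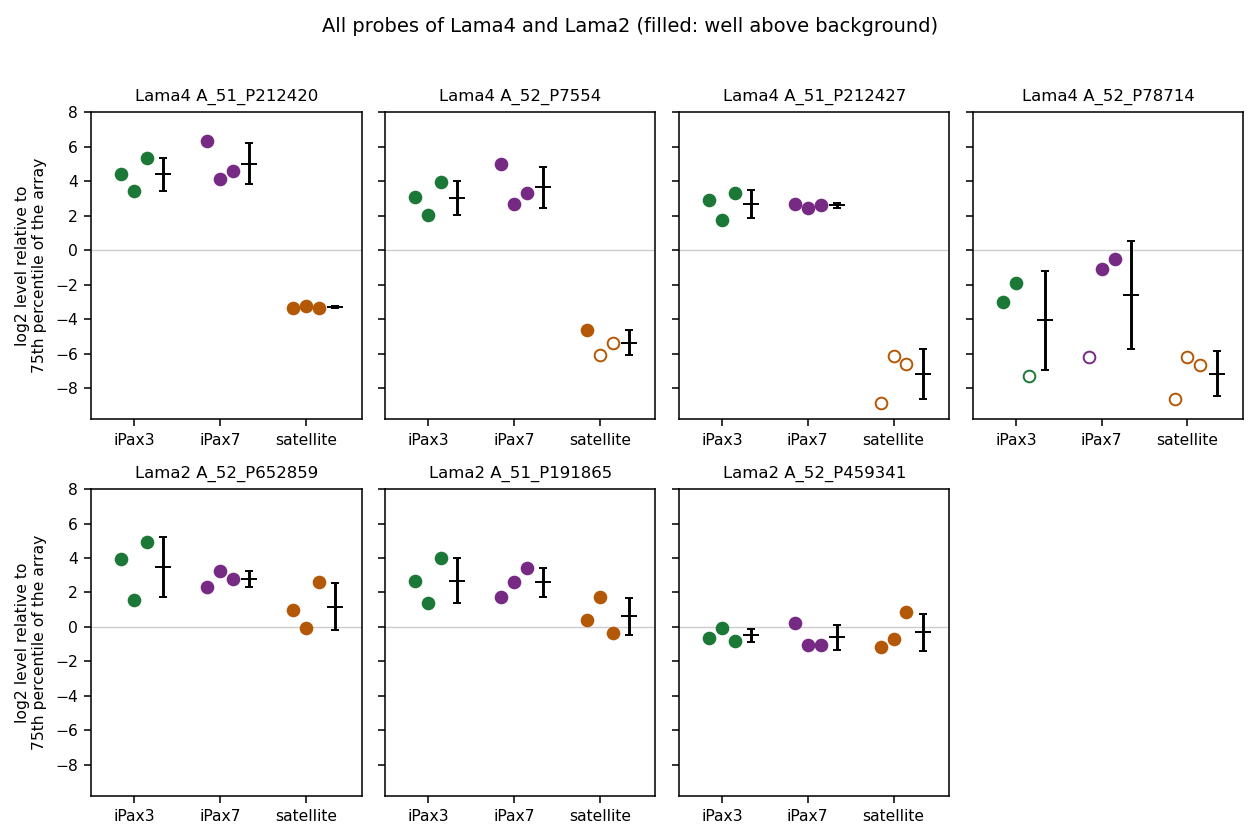
Log2 level above or below each array's 75th percentile (vertical axis) by group (horizontal axis) for the 4 Lama4 probes (upper row) and the 3 Lama2 probes (lower row). Filled points were well above background and open points were not, and the bars show the mean and SD of 3 arrays. The groups stay apart in 3 Lama4 probes and overlap in A_52_P78714 and in all Lama2 probes.

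The remaining α chains were mostly not measurable. Lama5, which encodes a chain of many adult epithelial and vascular basement membranes, was well above background on satellite replicate 1 alone, at -3.55. Its other arrays read between -7.43 and -5.90 and were not well above background. Lama1, the chain of the earliest embryonic basement membranes, has 2 probes. A_52_P561046 was well above background on no array. A_51_P188108 was well above background on iPax3 replicate 1 alone, at 3.11, while the other 8 arrays lay between -7.43 and -5.06. Neither gene was tested, and these levels do not show that the chains were absent.

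Of the β chains, Lamb1 rose and Lamb2 was not called. Lamb1 encodes the β1 chain, found in most early and vascular laminins. Its levels were 4.36, 3.44 and 4.55 in iPax3 and 4.04, 3.52 and 4.39 in iPax7. In satellite replicates 1 to 3 they were 0.26, -1.72 and -4.65, the last not well above background. The re-isolated arrays lay close together and the satellite arrays spread over almost 5 log2 units below them, without overlap. The combined difference was 6.08 ± 0.99 (limma adjusted p = 0.026). Its size rests in part on the satellite array at background, and was 4.58 with normexp and 4.78 without satellite replicate 3. In iPax3 alone it was 6.15 ± 1.14 and in iPax7 alone 6.02 ± 1.14, with limma adjusted p-values of 0.065 and 0.067. The combined call was lost when any array other than satellite replicate 1 was left out, with limma adjusted p-values from 0.051 to 0.097, and held at 7.23 without satellite replicate 1. It was also lost with slide or scan day as a random block, at 0.13 and 0.16.

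Lamb2 encodes the β2 chain of the neuromuscular junction and of vessel walls. Its levels were 3.66, 3.23 and 4.26 in iPax3, 3.25, 4.30 and 4.15 in iPax7, and 3.53, 3.80 and -1.43 in satellite cells. Satellite replicates 1 and 2 lay within the range of the re-isolated arrays, and replicate 3 lay far below. The combined difference was 1.84 ± 1.12 with a 95% interval from -0.69 to 4.37 (limma adjusted p = 0.46). Without satellite replicate 3 it was 0.14.

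Lamc1 encodes the γ1 chain, which most laminins share and which nidogens bind. It read 0.56, 0.68 and 2.12 in iPax3 and 2.80, 2.25 and 2.14 in iPax7. Satellite replicates 1 to 3 were at 0.07, -5.62 and -2.14, the second not well above background. The groups did not overlap, but satellite replicate 1 lay only 0.49 log2 units below the lowest re-isolated array. The difference was 3.68 ± 1.29 in iPax3 (limma adjusted p = 0.30), 4.96 ± 1.29 in iPax7 (limma adjusted p = 0.17) and 4.32 ± 1.11 in both (limma adjusted p = 0.13). None was called. Without satellite replicate 1 the combined difference was 5.64 and passed, at a limma adjusted p of 0.027, and that of iPax7 was 6.28, at 0.033. The combined difference fell to 2.75 with a background correction by normexp.

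Of the nidogens, Nid1 rose over both lines. It read 1.45, 0.83 and 0.66 in iPax3 and 1.93, 1.20 and 1.77 in iPax7. Satellite replicate 1 was at -1.54, and replicates 2 and 3, at -6.30 and -6.81, were not well above background. The lowest re-isolated array lay 2.20 log2 units above the highest satellite array. The combined difference was 6.19 ± 1.1 (limma adjusted p = 0.038). In iPax3 it was 5.87 ± 1.27 and in iPax7 6.52 ± 1.27, with limma adjusted p-values of 0.10 and 0.074, so neither line alone was called. Because 2 of the 3 satellite arrays were at background, the size depends on how background is removed, and normexp gave 3.03, still called at 0.024. The combined call was lost when any array other than satellite replicate 1 was left out, at limma adjusted p-values from 0.071 to 0.15, and with slide or scan day as a random block, at 0.16 and 0.19. Without satellite replicate 1 it was 7.86, at 0.0015.

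Nid2, the second nidogen, read 3.17, 2.15 and 5.19 in iPax3, 2.58, 2.52 and 3.80 in iPax7, and 0.98, 2.30 and -4.34 in satellite cells. Satellite replicate 2 lay above the lowest iPax3 array. The combined difference of 3.59 ± 1.38 was not called (limma adjusted p = 0.27), and it was 1.59 without satellite replicate 3 and 2.36 with normexp. Satellite replicate 3 was the lowest array for Lama4, Lamb1, Lamb2, Nid1 and Nid2, though the satellite arrays of Lama4 were nearly equal.

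**Figure D3:**
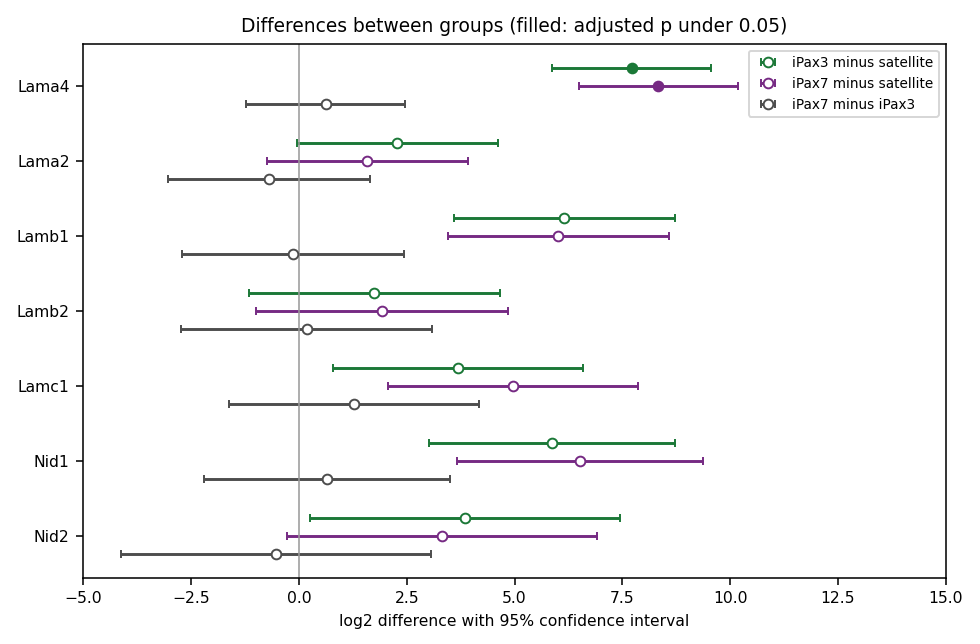
Log2 differences (horizontal axis) of the 7 tested members (vertical axis) with 95% confidence intervals from the limma fit, for iPax3 and iPax7 against satellite cells and for iPax7 against iPax3. Filled points passed an adjusted p of 0.05, which holds for Lama4 against satellite cells in either line. All 7 intervals of iPax7 against iPax3 include 0.

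The fall of members into called and not called does not show that they changed unequally. Pairs of chains that occupy the same place in the trimer, and the pair of nidogens, were therefore compared within each array. The difference between Lama4 and Lama2 was 1.61 ± 1.36 in re-isolated cells (SD, n = 6) and -4.48 ± 1.43 in satellite cells (SD, n = 3). This change of 6.09 log2 units had an exact two-sided permutation p of 0.0238, the smallest this design allows, and 0.0357 after Benjamini-Hochberg adjustment over 3 pairs. The per-array difference was higher in all 6 re-isolated arrays than in any satellite array. Between Lamb1 and Lamb2 it was 0.24 ± 0.56 in re-isolated cells and -4.00 ± 1.31 in satellite cells, a change of 4.24 with the same exact permutation p-values. In satellite replicate 3, where Lamb1 was not well above background, the difference was -3.22, and with normexp it was -0.39, against -3.27 and -2.98 in replicate 1. Between Nid1 and Nid2 it was -1.93 ± 1.36 and -4.53 ± 3.53, a change of 2.6 with an exact permutation p of 0.19. The groups overlapped for this pair. With normexp the adjusted p of both chain pairs was 0.0714. With a satellite array left out the design allows no raw p below 0.0714. The pairs with Lama5 were not tested because that gene did not pass the filter.

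No member was called between iPax7 and iPax3, as no gene was (0% of genes). At an unadjusted p under 0.05 there were 930 genes (4.10%) and none of the 7 members. The fit does not show that the lines were alike, and its intervals are wide. For Lama4 the difference was 0.62 with a 95% interval from -1.22 to 2.46, and for Lama2 -0.69 with an interval from -3.03 to 1.64. Lamb1 differed by -0.14 (-2.70 to 2.43), Lamb2 by 0.18 (-2.74 to 3.10) and Nid1 by 0.65 (-2.21 to 3.51). Nid2 differed by -0.53 (-4.13 to 3.07). Lamc1 had the largest difference of the 7, 1.28 (-1.62 to 4.18). It was the sole member whose 3 iPax7 arrays all lay above the 3 iPax3 arrays, as it was for 4.44% of genes. The iPax3 arrays and iPax7 replicate 1 shared a slide, and iPax7 replicates 2 and 3 lay on another. Within the shared slide, iPax7 replicate 1 was 1.96 above the iPax3 mean for Lama4 and 1.68 above it for Lamc1. With slide as a fixed block, a setting added after the data were seen, these were the fitted differences and neither was called (limma adjusted p = 0.50 and 0.54).

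The genes whose levels followed the called members most closely over the 9 arrays are given as a description, since the arrays share their groups. For Lama4 they were Ldb2, Podn, Dcn, Adamts12 and Ifi204, with Pearson r from 0.993 down to 0.987. Dcn encodes decorin, a proteoglycan of fibrous connective tissue, and Ldb2 a cofactor of LIM-domain transcription factors. For Lamb1 they were Col3a1, Gzmg, Has1, Col2a1 and Thbs1, with r from 0.990 to 0.979. Col3a1 encodes a fibrillar collagen, and Has1 a hyaluronan synthase. For Nid1 they were Slfn5, Gxylt1, C1galt1c1, Igf2 and Ckap4, with r from 0.990 to 0.989. Igf2 encodes an imprinted growth factor. Among the members, Lamb1 and Nid1 had an r of 0.965, Lama4 and Lamb1 of 0.915, and Lama4 and Lamb2 of 0.51. Nid1 was not well above background on satellite replicates 2 and 3, nor Lamb1 on replicate 3. The r values of these 2 genes therefore rest in part on readings at background.

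Promoter sequence is shown for Nid1, a called member whose window in the RefSeq table (build GRCm38.p6) ends where the annotated span of the gene begins. The table held 5 of the 9 genes. The 250 bases before the listed start were searched on both strands for the GC box GGGCGG, the CCAAT box, the TATA box TATAAA and the E-box CAGCTG. No matches of different motifs overlapped in the 5 windows. The window lies on the plus strand at chr13:13437352-13437601, and capitals mark GGGCGG or its reverse complement.
Nid1: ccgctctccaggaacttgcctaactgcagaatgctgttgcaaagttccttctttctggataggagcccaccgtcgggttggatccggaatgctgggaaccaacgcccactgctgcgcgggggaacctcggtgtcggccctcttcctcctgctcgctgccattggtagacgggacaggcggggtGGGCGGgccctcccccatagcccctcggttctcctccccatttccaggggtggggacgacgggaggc
The Nid1 window held 1 match to GGGCGG and 1 to CCAAT. That of Lamb1, of which 147 bases lie inside the annotated span of the gene, held 2 matches to GGGCGG and 1 to CCAAT. Of 32851 promoters in the table, 32.7% held GGGCGG and 33.8% held CCAAT in the same window, so either motif is common. Neither window held the TATA box (12.4% of promoters) or the E-box (13%). The windows of Lama2 and Lamb2 held none of the 4 motifs, and that of Lama5 held 4 matches to GGGCGG, and these windows too reach into the annotated spans. A match is a run of letters and does not show that a factor binds there.

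Few genes of the lists around the laminins passed the test. Of all genes, 15.4% had an unadjusted limma p under 0.05 in the combined comparison, beside which the unadjusted counts of the lists are given. In the same comparison 45.6% of all genes were higher and 1.04% were called in either direction. Of the laminin chains Lama3, Lamb3 and Lamc3, all were tested and 0 of 3 were called in the combined comparison, with 0 higher, 2 at an unadjusted limma p under 0.05 and a median of -1.68. Lama3, of the epithelial laminins, differed by -2.97 ± 0.83 (limma adjusted p = 0.16) and Lamc3 by -1.68. Lamb3 differed by -0.47.

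Of the laminin receptors, 0 of 14 were called by limma and 5 were higher, with 6 at an unadjusted p under 0.05 and a median of -0.62. Itga2, a collagen and laminin integrin subunit, differed by 4.55 but was well above background on no satellite array and on 4 re-isolated arrays. Itgb1, the β1 subunit shared by most of these integrins, differed by 4.33 ± 1.80 (limma adjusted p = 0.30). Its re-isolated arrays lay between 3.14 and 4.44 and its satellite arrays were 2.17, 2.43 and -6.73, the last again replicate 3. Dag1, which encodes dystroglycan, the receptor that ties laminin to dystrophin, differed by -2.60 ± 1.06 (limma adjusted p = 0.30), and Itga1 by 2.51.

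Of the basement membrane partners, 20 of 21 genes were tested, without Hspg2, and 1 was called, with 8 at an unadjusted limma p under 0.05, 10 higher and a median of 0.04. The called gene was Col15a1, a collagen of the outer basement membrane zone of muscle and capillaries. It read 4.43, 3.74 and 4.65 in iPax3, 2.57, 2.01 and 2.88 in iPax7, and -0.29, -1.53 and -0.78 in satellite cells. The combined difference was 4.25 ± 0.58 (limma adjusted p = 0.012), and the call also held in iPax3 (limma adjusted p = 0.017) but not in iPax7 (0.081). The other large differences, none called, were 3.81 for Col4a5, 3.32 for Pxdn, 2.93 for Fbln2 and -2.69 for Vwa1. Col4a5 was well above background on no satellite array and on 4 re-isolated arrays, so its size is not exact. Col4a5 encodes a collagen IV chain, Pxdn the peroxidase that cross-links collagen IV, and Fbln2 a fibulin that binds nidogen.

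Dystroglycan binds laminin through a glycan made by a chain of enzymes. Of 14 such genes, all tested, 0 were called by limma, also 0 at an unadjusted p under 0.05, with 7 higher and a median of 0.037. Pomt1 differed by -4.12, Pomgnt1 by -2.34, B4gat1 by -2.33 and Pomt2 by -1.12. Of 11 genes for collagen modification and export from the endoplasmic reticulum, 0 were called by limma and 9 were higher, with 1 at an unadjusted p under 0.05 and a median of 0.99. Sec23a differed by 3.80, Sec24d by 2.82, Plod2 by 2.14 and Plod1 by 1.79. Sec23a was well above background on 1 satellite array and Sec24d on 2, so their sizes are not exact.

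Of 16 proteases that cut laminins or their neighbours, and their inhibitors, 1 was called and 10 were higher, with 6 at an unadjusted limma p under 0.05 and a median of 1.46. The called gene was Mmp14, a membrane-bound metalloproteinase that also activates Mmp2. It read 5.80, 5.06 and 6.07 in iPax3, 6.27, 5.20 and 5.07 in iPax7, and 0.31, -4.16 and -3.28 in satellite cells. The combined difference was 7.96 ± 0.97 (limma adjusted p = 0.0082), and it was called in either line. Its size is not exact, since Mmp14 was well above background on only 2 satellite arrays. Mmp2 differed by 3.55, Plat by 3.05, Timp3 by -2.56 and Ctsb by 2.54, none of them called. Plat had no value in iPax7 replicate 1 and was well above background on 2 satellite arrays.

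**Figure D4:**
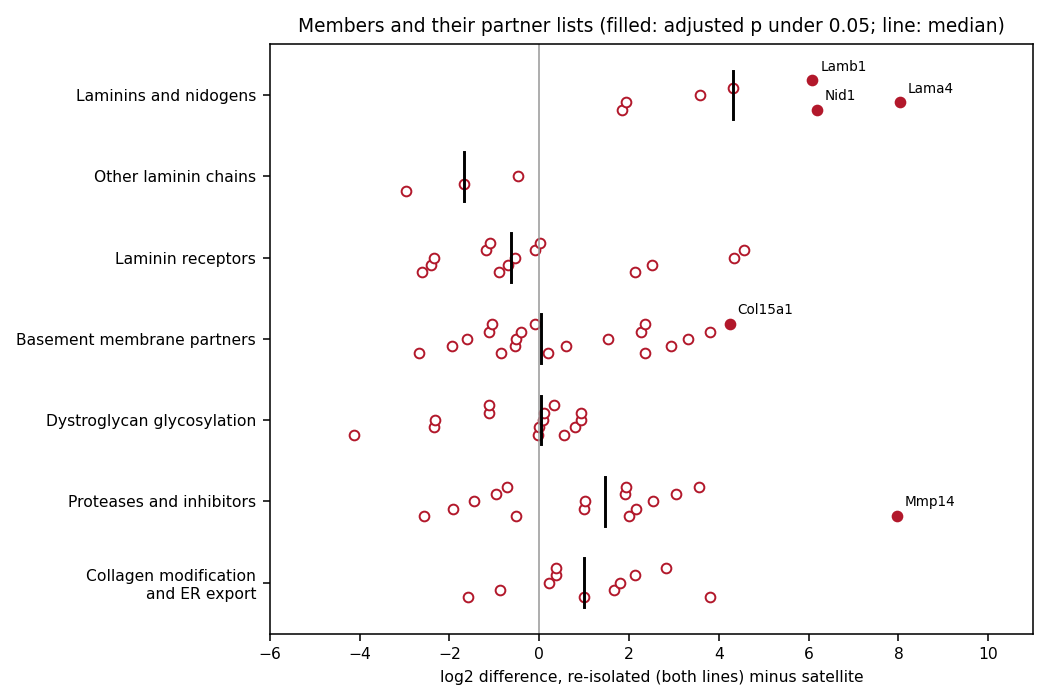
Log2 difference of re-isolated cells of both lines minus satellite cells (horizontal axis) for the tested members and for the genes of the 6 partner lists (vertical axis), with a point per gene. Filled points passed an adjusted p of 0.05 and the vertical line is the median of the list. The median of the members is 4.32, and those of the lists lie between -1.68 and 1.46, with Col15a1 and Mmp14 as the called genes.

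Among the marker lists of cell types, only that of fibroblasts held genes called higher in the combined comparison. Of 13 markers of fibroblasts and fibro-adipogenic cells, the connective tissue cells of muscle, 8 were called higher and 12 were higher in the combined comparison. At an unadjusted limma p under 0.05 there were 10. Of all genes, 1.04% were called in either direction, 45.6% were higher and 15.4% had an unadjusted limma p under 0.05. Pdgfra, their defining receptor, read between 3.81 and 5.48 in re-isolated cells and -4.36, -2.91 and -2.24 in satellite cells, a difference of 7.90 ± 0.69 (limma adjusted p = 0.00145). The summed linear level of the list, in units of the 75th percentile of the array, was between 478 and 966 in iPax3, between 692 and 1264 in iPax7, and between 72.1 and 173 in satellite cells. Such a sum is dominated by the brightest probes, and the 173 was that of satellite replicate 3. The list did not move as one within the satellite arrays. In replicate 3, Pdgfra, Ly6a, Lum, Col1a2, Dpp4, Dpt and Clec3b were at their highest satellite levels, with Dpt at 6.30 and Clec3b at 6.41. Col3a1, Gsn, Col1a1 and Thy1 were at their lowest there, at -0.39, -1.16, -0.23 and -0.37. Dcn and Pi16 lay between their other satellite levels. Dpt and Clec3b were not called between the groups, with combined differences of 0.63 and -0.20. Of 12 tested satellite cell markers, 11 were lower and 2 were called lower, Chrdl2 and Heyl, with 6 at an unadjusted limma p under 0.05. Pax7, which defines these cells, read 2.89, 3.53 and -0.66 in satellite cells and between -3.90 and -0.53 in re-isolated cells (limma adjusted p = 0.072). The sums of the satellite list were 42.7 to 54.5 in iPax3, 30.4 to 71.4 in iPax7 and 161 to 226 in satellite cells.

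The α4 and β1 chains are also made by vessel cells, so their markers were read too. Of 12 endothelial markers 0 were called by limma, also 0 at an unadjusted p under 0.05, 3 were higher and the sums were 5.38 to 7.41 in iPax3, 9.16 to 64.2 in iPax7 and 13.7 to 21.6 in satellite cells. Of the 12, 7 were well above background on all 3 iPax3 arrays, 7 on all iPax7 arrays and 8 on all satellite arrays. Among the defining markers, Pecam1 averaged 0.64 in iPax3, 1.78 in iPax7 and 0.71 in satellite cells. Cdh5 and Tek were well above background on no iPax3 array. Cdh5 was well above background on 2 iPax7 and 2 satellite arrays. Tek was so on all 3 iPax7 arrays, at 3.25, 1.88 and 0.63, and on 1 satellite array. Its satellite levels were 1.05, -6.31 and -6.80. Between iPax7 and satellite cells Tek differed by 5.94 and was not called (limma adjusted p = 0.25). The highest endothelial sum was that of iPax7 replicate 1, which also had the highest Lama4 level. The same array had the highest fibroblast sum, 1264, and the highest pericyte sum, 123. Of 11 pericyte and smooth muscle markers 0 were called higher, and Myh11 and Des were called lower. Their sums were 51.7 to 74.2, 53.8 to 123 and 79.1 to 106 in the 3 groups in the same order. No marker of the Schwann cell, leukocyte, muscle fibre, tenocyte or proliferation lists was called by limma, and at an unadjusted p under 0.05 there were 1, 1, 0, 2 and 0 of them. Their sums overlapped between re-isolated and satellite cells. The part of connective tissue, vessel or other cells in the laminin and nidogen results was not tested, and in sorted bulk samples a change in the cells present and a change in RNA per cell cannot be told apart.

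The calls for Lama4, Lamb1 and Nid1 did not rest equally on the processing. Lama4 was called over both lines by the RefSeq probe in every alternative fit run, with differences between 6.45 and 8.27 for that probe or the mean of its probes. Lamb1 and Nid1 kept their direction in every fit in which they were tested and lost their combined call in the fits named above and with the replicate number as a block. Neither passed the filter when a probe had to be well above background on all 9 arrays.

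**Figure D5:**
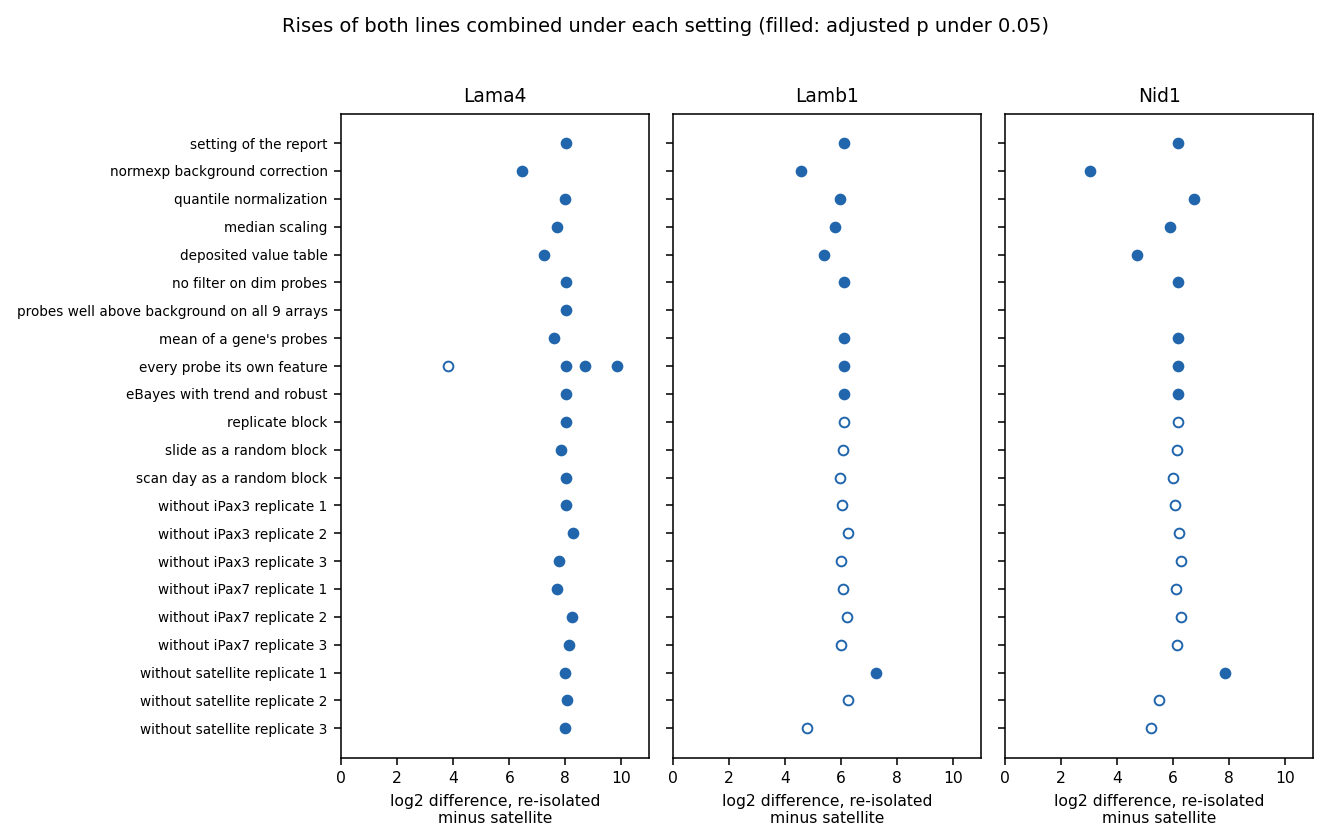
Log2 difference of re-isolated cells of both lines minus satellite cells (horizontal axis) for Lama4, Lamb1 and Nid1 under each setting (vertical axis). Filled points passed an adjusted p of 0.05. The row for every probe as its own feature shows all 4 Lama4 probes, and a missing point means that the gene did not pass the filter.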

How the data were processed

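Single-colour Agilent whole mouse genome arrays held 45018 spots, 1639 of them controls. The deposited intensity values were made with Feature Extraction 10.5.1.1 (detrended and background-subtracted), per the file headers, which set the well-above-background flag at 13 SDs. The deposited value table holds log2 values of 31918 spots adjusted between arrays; the submitters' processing notes name limma, and its adjustment is not given in the sources used here. Its columns correlated with the log2 mean signals at 0.9875 to 0.9993, with medians from 7.63 to 7.71, so the scale is uncentred log2. It served as an alternative.

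Levels are the log2 processed signal minus its 75th percentile over the non-control spots of the array. Outlier spots (60 to 342 per array) were left out, none was saturated, and spots of a probe were averaged. Probes well above background on at least 3 arrays, with values on at least 7 arrays and 2 per group, were kept (32952). The probe with the highest mean represented its gene. Between 56.5% and 79.7% of probes passed the flag per array. In replicates 1 to 3 it was 71.2%, 77.3% and 69.1% in iPax3 and 56.5%, 68.4% and 73.1% in iPax7. In satellite cells it was 79.7%, 56.7% and 60.3%, so satellite replicates 2 and 3 detected fewer probes than replicate 1. The number of arrays limits the precision.

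Groups came from the sample titles. limma 3.58.1 in R 4.3.3 (lmFit, eBayes) was fitted with a mean per group over all 9 arrays (6 residual and 3.2 prior degrees of freedom), with Benjamini-Hochberg adjustment over 22694 genes. Pairs were tested by exact permutation with SciPy 1.17.1. The scripts were tested on simulated data. Planned tests of Lama5 pairs could not be run, since Lama5 did not pass the filter.

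Members and lists were chosen with earlier results of these data known. All members were named; of each list, the called genes and up to 4 others with the largest combined difference; and for each called member the 5 genes with the highest Pearson r. Markers are named where they define a cell type. Some listed genes and a probe sequence are not reported here, and list counts and medians leave those genes out. Replicate numbers did not pair samples: the 9 same-number correlations of deviations lay between -0.13 and 0.06. Alternatives were background correction, scaling, filter, probe choice, moderation, blocks and leaving out each array.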

Additional observations from a re-analysis of the deposited data

Results flagged for a closer look

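The Lama1 probe A_51_P188108 had a level of 3.11 in iPax3 replicate 1 (log2 intensity minus the array's 75th percentile) and was well above background there and on no other array. It was singled out because it is a signal in a probe that no comparison used, above its level in all 3 satellite arrays (-6.82, -6.10 and -6.70). iPax3 replicates 2 and 3 read -6.63 and -7.43. The other Lama1 probe, A_52_P561046, was not well above background on that array or any other.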

How the results depend on the processing

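Against satellite cells, the number of members called in iPax3 was 1, and was 2 with normexp, quantile normalization or eBayes with trend and robust options, 3 with the deposited value table and 0 with slide as a random block. In iPax7 it was 1, and was 3 with normexp or the deposited table and 2 with eBayes with trend and robust options. Over both lines it was 3, and was 1 with probes well above background on all 9 arrays, with the replicate block, and with slide or scan day as a random block; the first of these tests 4 members. With 1 array left out it was 1 to 3 in iPax3, 1 to 4 in iPax7 and 1 to 4 over both, each highest without satellite replicate 1; over both lines it was 1 without any other array. With the replicate block, the combined adjusted p was 0.057 for Lamb1 and 0.053 for Nid1; the numbers do not pair the samples, and the block took the genes called over both lines from 236 to 115. Median scaling took them to 133, slide as a random block to 47 and scan day to 43, and moved the median of all genes from -0.16 to -0.47 in the first case. The cause of these changes was not tested.

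The change between Lama4 and Lama2 was 4.38 and that between Lamb1 and Lamb2 3.17 with normexp, both at an adjusted exact permutation p of 0.0714. With 1 array left out they were 5.34 to 6.76 and 3.49 to 4.64, at adjusted p-values of 0.0357 to 0.107, limited by the number of arrays. That between Nid1 and Nid2 was 0.57 to 3.64, and its adjusted p was 0.0357 without iPax3 replicate 3. Without a filter, the change between Lama5 and Lama2 was -3.26 (adjusted p = 0.12) and between Lama4 and Lama5 9.35 (0.0397), from an array at which Lama5 was measured and 8 at which it was not.

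Signs turned as follows, none at an adjusted p under 0.05. The Lama2 probe A_52_P459341 gave -0.17 in iPax3, -0.29 in iPax7 and -0.23 over both against satellite cells. Between iPax7 and iPax3, Lama4 was -0.067 by A_51_P212427, Lamb1 was 0.039 with median scaling, and Lamb2 was -0.082 with quantile normalization, -0.036 with the deposited table, -0.15 with slide as a random block and -0.47 with slide as a fixed block, which was chosen after seeing the data. With 1 array left out the same difference was -1.65 to 0.035 for Lama2, -0.047 to 1.09 for Lama4, -0.47 to 0.096 for Lamb1, -0.062 to 0.50 for Lamb2 and -1.21 to 0.31 for Nid2. A fit of the compared groups alone was not run for the combined comparison, which uses all groups.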
